A study of Mus musculus with 30 samples.

Results

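The genes described here are the 64 protein-coding mouse genes of the semaphorin (Sema), plexin (Plxn), ephrin (Efna, Efnb), Eph receptor (Epha, Ephb), Slit, Robo and netrin (Ntn, Ntng) families. Every gene with a matching symbol was taken from the 21887 protein-coding genes of the RefSeq table, whatever its values. The families themselves were chosen with earlier results of these data known. They comprise 20 semaphorins, 9 plexins, 5 Efna and 3 Efnb ephrins, 9 Epha and 5 Ephb receptors, 3 Slits, 4 Robos and 6 netrins, and their median length was 40.2 kb, against 17.2 kb for all protein-coding genes. Chromatin immunoprecipitation and sequencing was done on NOS1+ N1E115 cells, a mouse neuroblastoma line given in the labels as positive for NOS1, neuronal nitric oxide synthase, and kept for 3 days at 4% O2 or at 20% O2. Each of 6 antibodies gave 2 libraries at 4% O2 and 2 at 20% O2, and each library has its own list of peaks or islands, so the series holds 24 lists of immunoprecipitated material. A further 6 samples are inputs and were left out. Of the antibodies, 3 target RNA polymerase II: POLR2 for the enzyme in general, POLR2S5 for the form phosphorylated on serine 5, which is found mostly where transcription begins, and POLR2S2 for the form phosphorylated on serine 2, which is found mostly on elongating polymerase. The others target acetylated lysine 9 of histone H3 (H3K9ac), a mark of active promoters and enhancers, CTCF, a DNA-binding protein of chromatin boundaries, and RAD21, a subunit of the cohesin ring that CTCF halts. Within an antibody, libraries with the same replicate number were sequenced on the same flow cell, so that for each antibody a number stands for 1 sequencing round with both O2 levels. Replicate 1 of CTCF was on another flow cell than replicate 1 of the other antibodies. All cells came from 1 line, and the labels do not state whether paired libraries of a level were grown apart, so p-values measure the spread between libraries, which may be technical.

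Growing axons steer by secreted and membrane-bound cues that are read by receptors on the growth cone. Semaphorins bind plexins, often with a neuropilin as co-receptor, Slits bind Robos, netrins bind DCC and UNC5 receptors, and ephrins bind Eph receptor tyrosine kinases while also signalling back into the cell that carries them. The same families guide migrating neural crest cells, from which the sympathetic lineage and neuroblastoma arise.

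The lists differed in length: 11172 to 23262 islands for POLR2, 20686 to 24635 for POLR2S5, 16174 to 18938 for POLR2S2, and 71857 to 92649 peaks for H3K9ac, 73200 to 126873 for CTCF and 26908 to 73328 for RAD21. The shortest POLR2 and RAD21 lists were both those of 20% O2 replicate 1, and that library also had the fewest reads within POLR2 islands. H3K9ac marked 10 and 11 of 11 sympathetic neuroblast markers at 4% O2, Hand2, Th and Dbh among them, and 10 and 10 at 20% O2. The marker not called throughout was Nos1, the gene named in the cell label. It had an H3K9ac peak in 4% O2 replicate 2 alone, but POLR2S5 islands in all 4 libraries. Of the neuronal markers H3K9ac marked 6 of 7 in every library, all but Nefl. Markers of other cell types were marked less fully, with 2 of 6 endothelial, 3 of 7 fibroblast and 1 of 6 macrophage genes in each of the 4 libraries, and Cdh5, Col3a1 and Ptprc were among those with no peak. Since these are bulk samples, fewer cells with a bound site and less binding per cell cannot be told apart in any value below.

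Upstream sequences were at hand for 56 of the 64 genes, with 72 listed starts in all (RefSeq, build GRCm38.p6, the same assembly as the mm10 of the deposited lists). The following windows hold the 250 bases before a start, and are shown because CG-rich windows were found both with and without marks. In the first 3, capitals mark every CG dinucleotide, the site of most DNA methylation in mammals. Slit2 (chr5:47982905-47983154, plus strand, 25 CG) lay under H3K9ac peaks and islands of all 3 polymerase forms in all 4 libraries. Slit3 (chr11:35121206-35121455, plus strand, 35 CG) had no H3K9ac peak and no polymerase island in any library. Sema4d (chr13:51756684-51756933, minus strand, 1 CG) had H3K9ac and POLR2S5 in all 4 libraries.
Slit2: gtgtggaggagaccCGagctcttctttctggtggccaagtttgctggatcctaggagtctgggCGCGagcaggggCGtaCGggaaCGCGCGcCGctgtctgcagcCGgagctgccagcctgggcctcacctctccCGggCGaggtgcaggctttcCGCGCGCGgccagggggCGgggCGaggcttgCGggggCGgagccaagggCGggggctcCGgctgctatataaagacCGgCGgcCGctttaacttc
Slit3: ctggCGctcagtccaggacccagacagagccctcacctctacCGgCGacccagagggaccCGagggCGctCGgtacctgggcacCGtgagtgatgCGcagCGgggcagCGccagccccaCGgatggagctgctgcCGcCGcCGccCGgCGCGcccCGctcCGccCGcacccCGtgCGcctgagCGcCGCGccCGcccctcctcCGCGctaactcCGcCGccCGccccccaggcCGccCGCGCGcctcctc
Sema4d: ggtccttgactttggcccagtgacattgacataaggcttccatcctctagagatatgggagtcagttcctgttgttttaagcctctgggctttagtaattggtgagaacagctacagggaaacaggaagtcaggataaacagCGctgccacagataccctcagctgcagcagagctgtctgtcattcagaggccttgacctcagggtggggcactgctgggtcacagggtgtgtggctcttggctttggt

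Of the 72 member windows, 24 (33.3%) lay under an H3K9ac peak in all 4 libraries, against 35.9% of the 21263 windows of all protein-coding genes. The 24 acetylated windows held a median of 17.5 CG dinucleotides, and the 36 member windows without H3K9ac in any library still held a median of 13.5, with a range of 0 to 39. Over all genes, windows without H3K9ac in any library held a median of 3.0 CG, and those with it in all 4 held 16. Unacetylated axon guidance windows thus held more CG by median than unacetylated windows in general, with 39 in Sema3c and 27 in Ephb6. No test was made of this difference.

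In the next window, of Epha8 (chr4:136956817-136957066, minus strand), capitals mark ACGTG and GCGTG, the core letters recognised by hypoxia-inducible factors, on either strand. It held 6 matches, the most of any member window, and 46 CG.
Epha8: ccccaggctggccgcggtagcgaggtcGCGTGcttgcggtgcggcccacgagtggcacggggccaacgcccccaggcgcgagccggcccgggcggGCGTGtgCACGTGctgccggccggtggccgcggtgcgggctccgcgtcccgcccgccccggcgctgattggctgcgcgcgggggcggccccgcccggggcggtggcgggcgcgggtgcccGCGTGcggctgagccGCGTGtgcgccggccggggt
A match on either strand to ACGTG or GCGTG was found in 29 of 72 member windows (40.3%) and in 44.0% of all windows of this length, so these letters were no more frequent upstream of axon guidance genes than elsewhere. The run cacgtg counts as a match on each strand.

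In the last windows, capitals mark a core of the sequence bound by CTCF on either strand, namely CC, 3 bases of any kind, AG, 2 bases of any kind and GGC. They are shown because a match and a peak did not always go together. Epha1 (chr6:42373269-42373518, minus strand) held 1 match and lay under a CTCF peak in all 4 libraries. Plxna3 (chrX:74328816-74329065, plus strand) held 2 matches and had no CTCF peak in any library.
Epha1: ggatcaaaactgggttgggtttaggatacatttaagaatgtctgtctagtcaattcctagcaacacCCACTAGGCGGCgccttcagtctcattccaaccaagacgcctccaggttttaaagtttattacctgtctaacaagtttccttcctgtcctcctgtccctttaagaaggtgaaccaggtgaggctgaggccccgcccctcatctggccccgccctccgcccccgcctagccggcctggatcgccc
Plxna3: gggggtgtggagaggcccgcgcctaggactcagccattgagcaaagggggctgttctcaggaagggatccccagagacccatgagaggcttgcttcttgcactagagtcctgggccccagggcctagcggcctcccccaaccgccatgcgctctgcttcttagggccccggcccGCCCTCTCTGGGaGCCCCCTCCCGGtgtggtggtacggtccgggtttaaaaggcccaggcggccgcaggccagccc
The core was present in 5 of 72 member windows (6.94%) and in 8.2% of all windows. Among windows with CTCF in all 4 libraries it was present in 1 of 9 member windows and in 24.0% of all such windows, so 8 of the 9 member windows with a CTCF peak did not hold these exact letters.

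**Figure D1:**
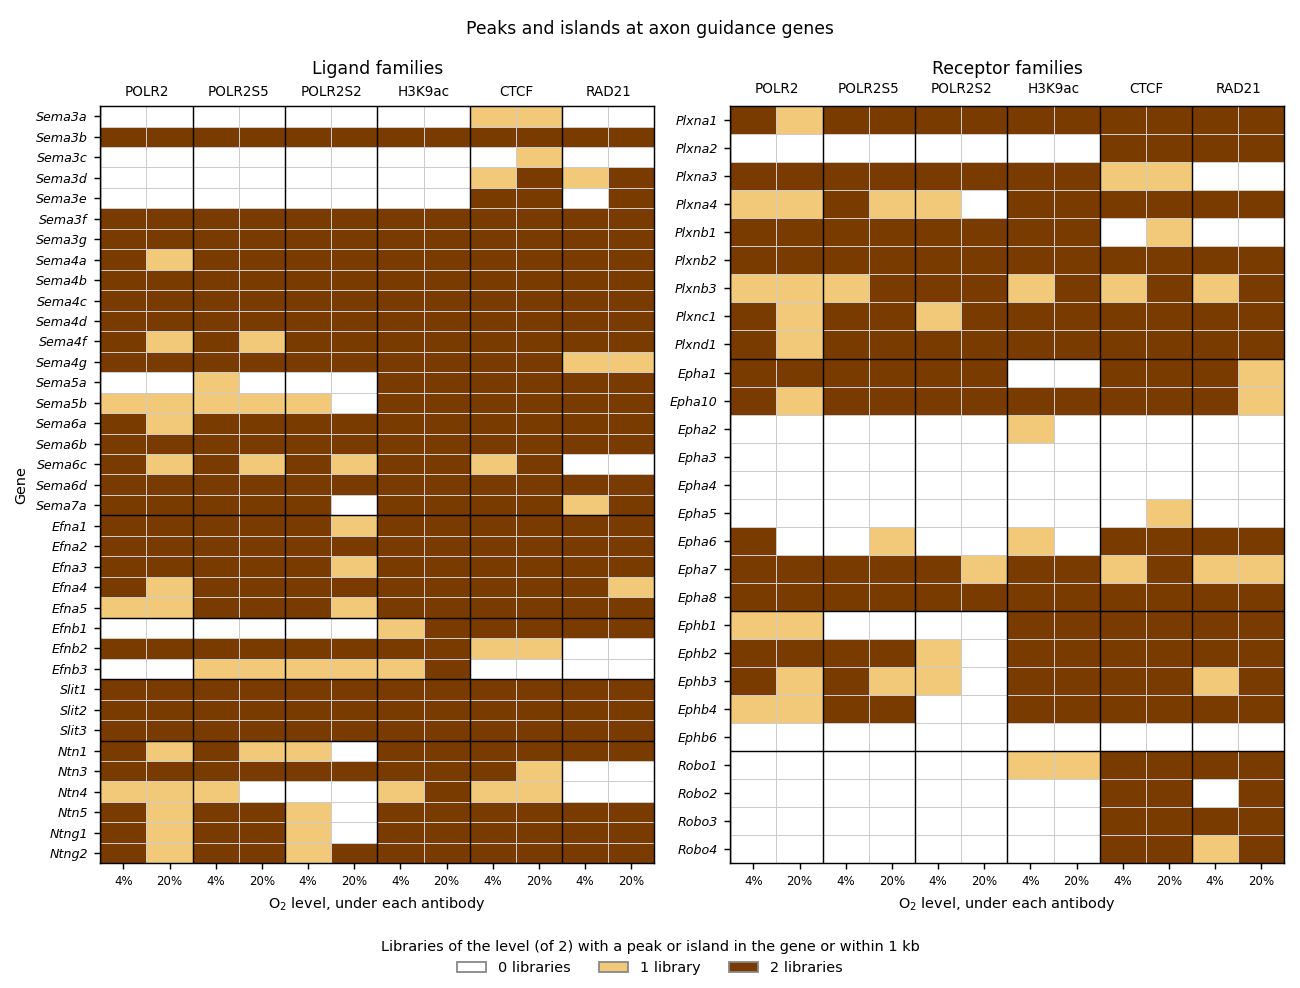
Each row is 1 axon guidance gene and each pair of columns 1 antibody, with 4% O2 left of 20% O2; the shade gives how many of the 2 libraries of that level had a peak or island in the gene or within 1 kb. The 3 Slit rows are filled throughout, the 4 Robo rows are filled only for CTCF and RAD21 apart from single H3K9ac libraries of Robo1, and Epha3, Epha4 and Ephb6 are empty.

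Counting a peak or island anywhere in the gene or within 1 kb of it, 30 of the 37 semaphorin, ephrin, Slit and netrin genes carried H3K9ac in all 4 libraries, and 25 carried POLR2S5 (81.1% and 67.6%, against 58.9% and 52.7% of all genes). All 3 Slit genes, which encode secreted repellents, were called with all 6 antibodies in all 4 libraries. All 5 Efna genes, encoding membrane-anchored ephrins, had H3K9ac, POLR2S5 and CTCF in all 4. Among semaphorins, Sema3b, Sema3f and Sema3g (secreted) and Sema4b, Sema4c, Sema4d, Sema6b and Sema6d (transmembrane) were called with every antibody in every library. Secreted Sema3a, Sema3c, Sema3d and Sema3e had no H3K9ac peak and no polymerase island in any library.

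Of the 27 receptor genes, 14 carried H3K9ac in all 4 libraries and 12 carried POLR2S5 (51.9% and 44.4%). The difference from the ligand genes was not tested. Plxnb2, a receptor for class 4 semaphorins, and Epha8 were the receptors called with all 6 antibodies throughout. Plxna3 and Plxnb1 had all 3 polymerase forms and H3K9ac in all 4 libraries but no RAD21 peak in any. None of the 4 Robo genes, the Slit receptors, had a polymerase island of any form in any library, while each had CTCF in all 4. Epha3, Epha4 and Ephb6 had nothing with any antibody, and Epha5 had CTCF in 1 library alone. In all, 13 members (20.3%) had no H3K9ac peak in any library, against 35.2% of all protein-coding genes. Epha1 was the exception among these members, with islands of all 3 polymerase forms in all 4 libraries. The Epha1 region of each form also takes in Zyx, so these islands cannot be assigned to Epha1 alone. Within 1 kb of a listed Epha1 start, islands were called in 2 libraries for POLR2, 2 for POLR2S5 and 3 for POLR2S2.

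With the whole gene and flanks as the window, the members differed little from all protein-coding genes in polymerase. Of the members, 39.1% had POLR2 in all 4 libraries against 42.2% of all genes, 57.8% against 52.7% had POLR2S5, and 43.8% against 42.8% had POLR2S2. H3K9ac was in all 4 for 68.8% against 58.9%, CTCF for 73.4% against 51.6%, and RAD21 for 59.4% against 34.6%. Members are longer than all genes by median, and the link of length to these shares was not tested. Per megabase of gene and flank, members held 12.5 CTCF regions called in all 4 libraries and all genes 23.2, and 7.44 RAD21 regions against 11.6. Within 1 kb of a listed start, a window of 1 size for every gene, CTCF was called in all 4 libraries for 21 of 56 members (37.5%) and 22.2% of all genes with a listed start, and RAD21 for 12 (21.4%) and 9.34%. H3K9ac at the start went the other way, with 46.4% of members and 52.4% of all genes. Of the 141 CTCF regions shared by all 4 libraries in members, 77 (54.6%) overlapped a shared RAD21 region, against 49.1% in all genes.

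Islands covered some members almost whole. Ntn3, a short netrin gene, was covered by islands over 100% of its window for all 3 forms in all 4 libraries. Sema4c was covered over 100% in both 4% O2 libraries and over at least 92.2% in every 20% O2 library for each form. Sema4d was covered by POLR2S2 over 99% and 92.7% at 4% O2 and over 89.4% and 98.1% at 20% O2, and Plxnb2 was covered over 100% by POLR2S5 in all 4 libraries. Efna1 was covered by POLR2 over 100% in both 4% O2 libraries and over 87.5% and 84.0% at 20% O2. The regions formed by these islands also take in neighbouring genes, so the coverage cannot be assigned to the member alone. Among the neighbours were Tbc1d24 and Tedc2 at Ntn3, Cnnm3 and Cnnm4 at Sema4c, and Secisbp2 at Sema4d. Tubgcp6 and Hdac10 were among those at Plxnb2, and Dpm3 and Slc50a1 were those at Efna1. By number of peaks, which favours long genes, the member with most was Slit3, with 103 and 104 H3K9ac peaks at 4% O2 and 82 and 107 at 20% O2. It was followed by Slit1, with 25 and 44 peaks against 22 and 43, and by Plxna4, with 25 and 32 against 27 and 31. The same 3 genes had the most CTCF peaks, and Slit3, Sema6d and Plxna4 the most RAD21 peaks.

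The marks of Slit3 lay far from its listed start, which had none of the polymerase forms. With the gene cut into 3 parts of equal length, the last part held 68 and 63 of the H3K9ac peaks at 4% O2 and 62 and 67 at 20% O2, and the first part held 0 and 6 at 4% O2 and 1 and 5 at 20% O2. A POLR2S5 region called in all 4 libraries ran over chr11:35518801-35714800, and a POLR2S2 region over chr11:35526001-35715800. Both span the hairpin of Mir218-2 (chr11:35616816-35616925), a microRNA gene in Slit3. Its twin Mir218-1 lies in Slit2 (chr5:48223942-48224051) and had no peak or island in any library. The mature microRNAs are shown with the seed, bases 2 to 8, in capitals; the 5p arm is the same from both genes.
mmu-miR-218-5p: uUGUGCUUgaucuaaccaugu
mmu-miR-218-2-3p: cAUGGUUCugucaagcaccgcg
mmu-miR-218-1-3p: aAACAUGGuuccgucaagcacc
The POLR2S5 island over the Mir218-2 hairpin held 7162 and 3970 reads at 4% O2 and 10049 and 4288 at 20% O2. The POLR2S2 island over it held 11596 and 6762 reads at 4% O2 and 11621 and 4551 at 20% O2. These are reads as deposited, not scaled to library size, and the islands differ in length. No total POLR2 island covered the hairpin in any library.

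Genes called in both libraries of an O2 level and in neither of the other were few. For POLR2 the one such member was Epha6, called in both 4% O2 libraries, against 0.27% of all genes in that direction. Its islands covered 0.0585% and 0.0173% of the window, at the edge that adjoins Arl6, and neither counted when most of an island had to lie in the window. For POLR2S2 the one member was Sema7a, a membrane-anchored semaphorin, with 6.33% and 21.4% of its window covered at 4% O2 and no island at 20% O2; 1.49% of all genes did the same. Total POLR2 at the start of Sema7a was called in all 4 libraries, with a log2 ratio of reads, 4% over 20% O2, of 0.25 ± 0.38 (SE). A window with 5 kb to each side left no such member for either form. For RAD21, Robo2 and the secreted Sema3e were called in both 20% O2 libraries alone, with 1 and 2 peaks in Robo2 and 1 and 1 in Sema3e, against 0.631% of all genes in that direction. No member was called at 1 level alone for POLR2S5 (0.16% of all genes at 4% O2, 0.251% at 20% O2), for H3K9ac (0.0503% and 0.219%) or for CTCF (0.434% and 0.0366%). None was called at 20% O2 alone for POLR2 (0.16%) or POLR2S2 (0.178%), nor at 4% O2 alone for RAD21 (0.425%).

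The polymerase forms were next compared between 4% and 20% O2 by reads. Reads in islands were summed over each region called in all 4 libraries, scaled by TMM (trimmed mean of M values) and tested with edgeR's quasi-likelihood test over all such regions, 7811 for POLR2, 9933 for POLR2S5 and 5936 for POLR2S2. Levels are given in CPM, edgeR's usual scaled count, taken here relative to a library's reads over all such regions after TMM. No region of any gene passed an adjusted p of 0.05 (0.0% called for each form), with 174, 288 and 349 regions at an unadjusted p under 0.05 (2.23%, 2.9% and 5.88%). Of the member regions, 1 of 35 for POLR2 (Slit3), 2 of 41 for POLR2S5 (Epha8 and Sema4a) and 3 of 28 for POLR2S2 (Epha8, Plxnd1 and Sema4a) had an unadjusted p under 0.05. Treating the replicate number as a block, which stands for the sequencing round shared by both O2 levels, edgeR called 2 regions for POLR2 (0.0256%), 3 for POLR2S5 (0.0302%) and 11 for POLR2S2 (0.185%), none of them in a member. With the block, 6 of 35, 7 of 41 and 6 of 28 member regions had an unadjusted p under 0.05. Over all regions those shares were 12.9%, 13.1% and 15.4%. Unless the block is named, ratios, standard errors and p-values below are from the fit without it. DESeq2 called 1, 19 and 53 regions, and 1 of the last was a member region, in Epha8. Both 4% O2 libraries lay above both 20% O2 libraries in 14.9% of all POLR2 regions and below them in 15.9%. For POLR2S5 these background shares were 15.3% and 15.4%, and for POLR2S2 20.3% and 19.1%.

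Against that background, 4 of the 35 POLR2 regions in members were higher at 4% O2 without overlap and 8 were lower (11.4% and 22.9%). POLR2S5 had 6 higher and 6 lower of 41 (14.6% each), and POLR2S2 had 5 higher and 4 lower of 28 (17.9% and 14.3%). The median log2 ratio of member regions, 4% over 20% O2, was -0.10 for POLR2, -0.11 for POLR2S5 and 0.07 for POLR2S2. Over all regions it was -0.03 for POLR2 and -0.01 for POLR2S5. The member medians are small beside the spread between libraries: without 20% O2 replicate 1 they were 0.07 for POLR2 and 0.10 for POLR2S5. Only 30 of the 64 genes had a POLR2 region called in all 4 libraries, 36 a POLR2S5 region and 27 a POLR2S2 region, and the other members entered no ratio.

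**Figure D2:**
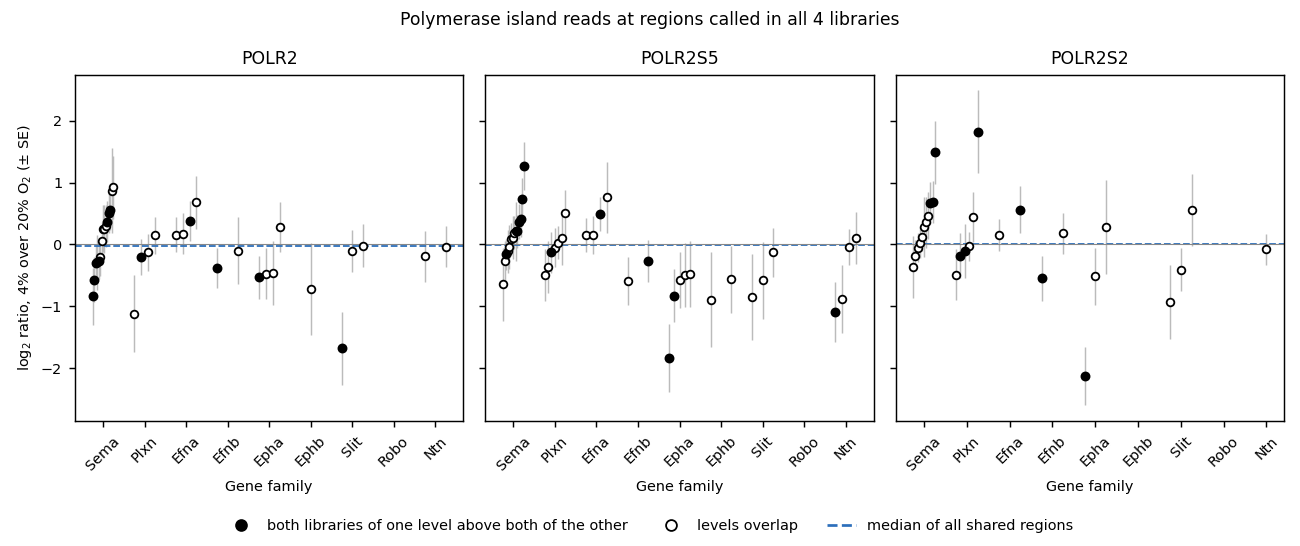
Each point is 1 region called in all 4 libraries, grouped by gene family, with its fitted log2 ratio of reads, 4% over 20% O2, and its standard error; filled points have both libraries of one level above both of the other, and the dashed line is the median of all regions. Sema4a and Plxnd1 reach 1.49 and 1.82 for POLR2S2, Epha8 reaches -2.13, and the Robo family has no region.

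Semaphorins held the highest ratios among the ligands. Sema4a encodes a transmembrane semaphorin with roles in the nervous and immune systems. Over chr3:88433601-88462400, which spans the gene, POLR2S5 gave 75.5 and 106 CPM at 4% O2 and 31.2 and 44.3 at 20% O2, a log2 ratio of 1.27 ± 0.39 (SE, n = 2 each; edgeR adjusted p = 0.999, and 0.248 with the replicate block). POLR2S2 over chr3:88429201-88461200 gave 65.4 and 108 against 25.8 and 35.7, a log2 ratio of 1.49 ± 0.51 (edgeR adjusted p = 0.809, and 0.242 with the replicate block). Both 4% O2 libraries were above both 20% O2 libraries for either form. Total POLR2 near the end of Sema4a, in a region shared with Pmf1 and Slc25a44, gave 257 and 208 CPM at 4% O2 and 182 and 146 at 20% O2, a log2 ratio of 0.51 ± 0.33 (adjusted p = 0.992). In 20% O2 replicate 1 no POLR2 island reached the Sema4a window, so this ratio cannot be assigned to Sema4a.

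The excess at Sema4a went with longer islands. POLR2S2 islands covered 73.6% and 96.4% of the Sema4a window at 4% O2 and 18.5% and 41.3% at 20% O2. Per kilobase of island, the log2 ratio was -0.19 for POLR2S2 and -0.20 for POLR2S5. That scaling moved the median of all regions to -0.37 for POLR2S2, -0.30 for POLR2S5 and -0.48 for POLR2. Against those medians Sema4a lay slightly above for the phosphorylated forms. The POLR2 region shared with Pmf1 and Slc25a44 lay below, at -1.46.

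Among secreted semaphorins, Sema3f over chr9:107675201-107718200 gave 152 and 192 POLR2S5 CPM at 4% O2 and 83.8 and 123 at 20% O2, a log2 ratio of 0.73 ± 0.35 (edgeR adjusted p = 0.999). The levels did not overlap, and the log2 ratio per kilobase of island was 0.13. This region also takes in Gnat1. The other forms at Sema3f had overlapping levels, with log2 ratios of 0.87 ± 0.68 for POLR2 and 0.36 ± 0.41 for POLR2S2. Sema3b sits in a cluster of small genes and shares each of its regions with neighbours such as Gnai2, Hyal1 and Ifrd2. Its log2 ratios were 0.56 and 0.37 for 2 POLR2 regions, 0.41 and 0.37 for 2 POLR2S5 regions and 0.69 for 1 POLR2S2 region, without overlap of the levels, and 0.46 ± 0.38 for another POLR2S2 region, with overlap. Sema4b gave 276 and 311 POLR2S2 CPM at 4% O2 and 139 and 230 at 20% O2, with a log2 ratio of 0.67 ± 0.34, in a region that also takes in Cib1, Gdpgp1 and Ttll13. Total POLR2 at the start of Sema4b had a log2 ratio of 0.05 ± 0.32, with overlapping levels, and POLR2S5 over the gene 0.19 ± 0.27, also overlapping. A further POLR2 region, shared with Cib1 and Gdpgp1, had -0.57 ± 0.36 without overlap. A POLR2 region shared by Sema3g and Phf7 had a log2 ratio of -0.84 ± 0.46 without overlap, while at the Sema3g start it was -0.20 ± 0.31 with overlap, and both POLR2S5 regions of Sema3g overlapped too. The POLR2S5 region of Sema4c, which takes in 5 other genes, had -0.16 ± 0.25 without overlap.

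**Figure D3:**
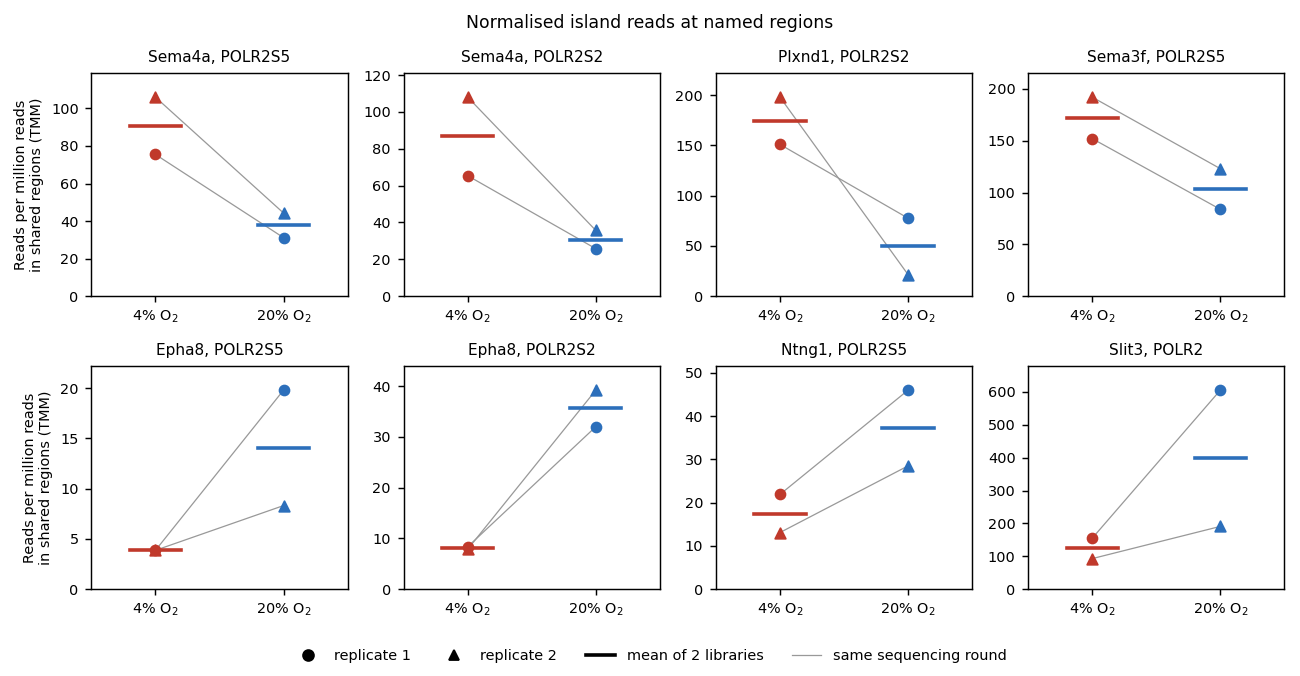
Normalised island reads of 8 member regions, in CPM over the regions called in all 4 libraries, with 4% O2 left of 20% O2; circles are replicate 1, triangles replicate 2, bars the mean of 2 libraries, and grey lines join libraries of the same sequencing round. Sema4a, Plxnd1 and Sema3f are higher at 4% O2 in both rounds, and Epha8, Ntng1 and Slit3 are lower in both.

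Among the other ligands, Efna1 over chr3:89259201-89287000 gave 215 and 213 POLR2S5 CPM at 4% O2 and 155 and 150 at 20% O2, a log2 ratio of 0.49 ± 0.27 (edgeR adjusted p = 0.999). Its neighbour Efna4 had log2 ratios of 0.38 ± 0.32 for POLR2 and 0.56 ± 0.38 for POLR2S2, also without overlap. No POLR2 island of 20% O2 replicate 1 reached the Efna4 window, so the POLR2 ratio cannot be assigned to Efna4. POLR2S5 at Efna4 had 0.15 ± 0.31 and POLR2 at Efna1 had 0.17 ± 0.33, both with overlapping levels. These genes lie close together with Efna3 on chromosome 3, and their regions take in other genes. Efnb2, a transmembrane ephrin of arterial and neural tissue, ran lower at 4% O2 without overlap in 1 region for each form, though not in the same place. The POLR2 and POLR2S5 regions, with log2 ratios of -0.38 ± 0.33 and -0.27 ± 0.34, touch no other gene. The POLR2S2 region, with -0.55 ± 0.37, takes in the Efnb2 start and Arglu1. Over the start region shared with Arglu1, POLR2 had -0.10 ± 0.54 and POLR2S5 -0.59 ± 0.39, both with overlapping levels. Ntng1, a membrane-anchored netrin, gave 21.9 and 13.1 POLR2S5 CPM at 4% O2 and 46.0 and 28.5 at 20% O2 over chr3:109780001-109785400, a log2 ratio of -1.09 ± 0.48 (adjusted p = 0.999).

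Slit3 had the largest difference in total POLR2. Over chr11:35644401-35698600, inside the gene, there were 155 and 93.1 CPM at 4% O2 and 605 and 191 at 20% O2, a log2 ratio of -1.68 ± 0.59 (edgeR adjusted p = 0.992; 0.182 with the replicate block). The level of 20% O2 replicate 1 stood far above the other 3 libraries, and that library is the one with the fewest POLR2 island reads. Without 20% O2 replicate 2 the log2 ratio was -2.27 and its adjusted p 0.00666, and that setting called 195 POLR2 regions in all. That fit sets 1 library at 20% O2, the one that stood apart, against 2 at 4% O2, so its spread comes from the 4% O2 libraries alone and the lone library is assumed to vary like them. Islands in the region measured 15.2 kb in both 4% O2 libraries and 52.4 and 28.2 kb at 20% O2, and per kilobase of island the log2 ratio was -0.17. The phosphorylated forms over the longer Slit3 regions gave 1090 and 451 POLR2S5 CPM at 4% O2 and 2210 and 562 at 20% O2, and 1280 and 597 POLR2S2 CPM against 2650 and 914. Those levels overlapped between the O2 levels, though each round was lower at 4% O2. With the replicate block, the log2 ratios there were -0.67 ± 0.27 for POLR2S5 and -0.84 ± 0.21 for POLR2S2 (edgeR adjusted p = 0.37 and 0.178). At the Slit2 start, where all 3 forms were called throughout, the log2 ratios were -0.11 ± 0.34, -0.13 ± 0.39 and 0.55 ± 0.58 for POLR2, POLR2S5 and POLR2S2.

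Among receptors, Plxnd1, a semaphorin receptor with a role in vessel and axon patterning, had the highest POLR2S2 ratio. Over chr6:115949201-116001800, shared with H1f8, it gave 151 and 198 CPM at 4% O2 and 77.6 and 21.5 at 20% O2, a log2 ratio of 1.82 ± 0.67 (edgeR adjusted p = 0.809, and 0.205 with the replicate block). Both 4% O2 libraries were higher, but the 20% O2 libraries differed between themselves. Islands of 20% O2 replicate 1 lay over the last part of the gene and reached beyond it, and those of replicate 2 mostly upstream of the start, so that 5.96 kb and 0.74 kb of the gene were covered, against 28.7 and 40.5 kb at 4% O2. Per kilobase of island the log2 ratio was -0.44. POLR2S5 over nearly the same span gave 260 and 256 CPM at 4% O2 and 337 and 143 at 20% O2, a log2 ratio of 0.10 ± 0.43 with overlapping levels. Plxnb1 and Plxna3 were lower at 4% O2 for POLR2S2 by much less than their standard errors, with log2 ratios of -0.11 ± 0.44 and -0.18 ± 0.36.

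**Figure D4:**
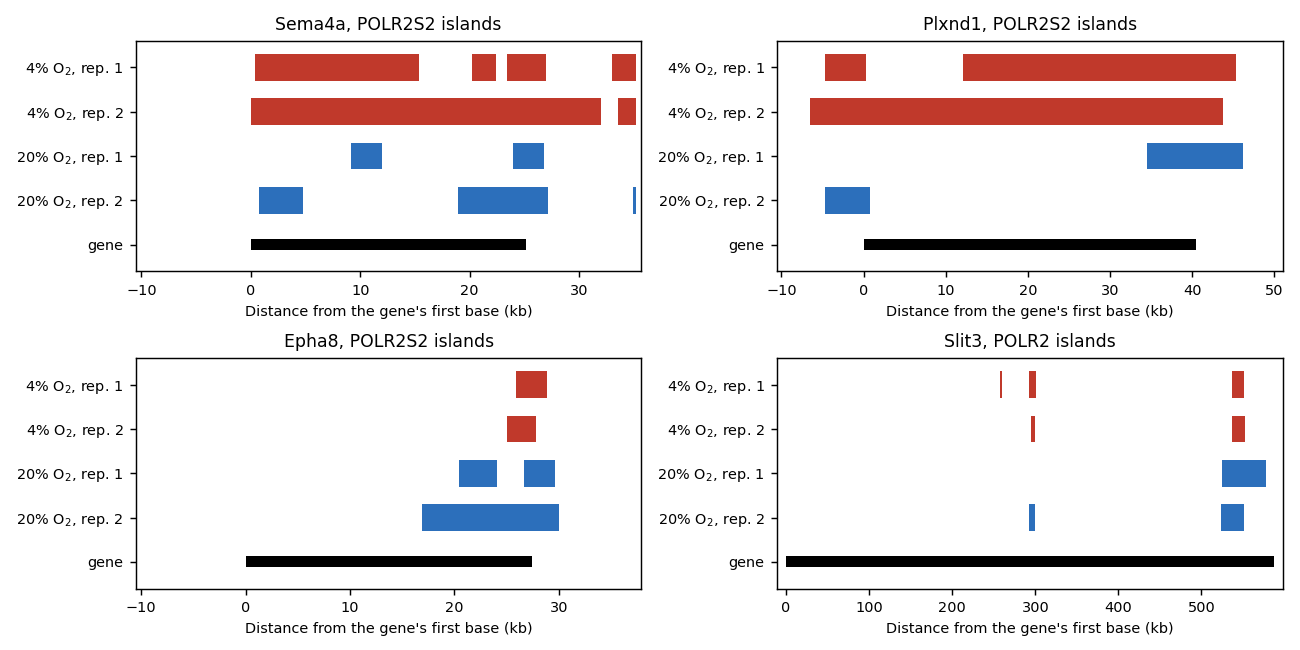
Islands along 4 genes in each library, drawn against the distance in kb from the first base of the gene (black bar), with 4% O2 libraries in red above 20% O2 libraries in blue; 10 kb to each side are included. Sema4a and Plxnd1 are covered more at 4% O2, and Epha8 and the far end of Slit3 are covered more at 20% O2.

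Epha8, an Eph receptor of the nervous system, had the lowest ratios of any member. Over chr4:136926801-136940000, towards its far end, POLR2S2 gave 8.36 and 7.87 CPM at 4% O2 and 32.0 and 39.2 at 20% O2, a log2 ratio of -2.13 ± 0.47 (edgeR adjusted p = 0.774; 0.177 with the replicate block). DESeq2 called it, with a log2 ratio of -2.15 and an adjusted p of 0.0479. POLR2S5 over chr4:136927201-136936000 gave 3.86 and 3.87 CPM against 19.8 and 8.32, a log2 ratio of -1.84 ± 0.55 (adjusted p = 0.999). The 4% O2 libraries were below both 20% O2 libraries for each form. In raw reads this POLR2S5 region held 36 and 40 at 4% O2 and 104 and 89 at 20% O2, so the counts are small. Per kilobase of island, the log2 ratio was -0.47 for POLR2S2 and 0.18 for POLR2S5. At the start of Epha8, the place of the printed window, the levels overlapped, with log2 ratios of 0.28 ± 0.41 for POLR2 and -0.48 ± 0.53 for POLR2S5. Epha7, expressed in the developing brain as a repulsive receptor, gave 10.4 and 15.4 POLR2S5 CPM at 4% O2 and 21.1 and 24.8 at 20% O2 at its start, a log2 ratio of -0.83 ± 0.43. The POLR2 region at the Epha6 edge, which was called in all 4 libraries over the side of Arl6, had a log2 ratio of -0.53 ± 0.35.

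By family, median log2 ratios of semaphorin regions were 0.25, 0.15 and 0.28 for POLR2, POLR2S5 and POLR2S2, over 15, 14 and 11 regions, and those of Efna regions 0.27, 0.32 and 0.35, over 4, 4 and 2. Those of Efnb regions were -0.24, -0.43 and -0.19 over 2 each, of Slit regions -0.11, -0.58 and -0.41 over 3 each, and of netrin regions -0.12, -0.46 and -0.08 over 2, 4 and 1. Among receptors, medians of plexin regions were -0.17, -0.05 and -0.07 over 4, 7 and 6, and of Epha regions -0.46, -0.58 and -0.51 over 4, 5 and 3. Ephb regions had -0.72 for POLR2 (1 region) and -0.72 for POLR2S5 (2 regions), and no POLR2S2 region. These medians are descriptions, and no difference between families was tested.

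H3K9ac, CTCF and RAD21 were compared by rank. The score of each peak, −log10 of a q-value as deposited, was ranked from 0 to 100 within its library over the regions called in all 4 libraries, and differences are in percentile points, 4% minus 20% O2. With 2 libraries per level an exact permutation test cannot go below p = 0.333, so no region was tested.

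H3K9ac had 189 such regions in 45 members. Both 4% O2 libraries ranked above both 20% O2 libraries in 27 (14.3%; 13.9% of all regions) and below them in 21 (11.1%; 13.1% of all), and the median difference was 0.53 points (0.14 over all regions). Plxnc1, a receptor for Sema7a, had ranks of 64.8 and 23.5 at 4% O2 and 10 and 5.7 at 20% O2 over chr10:94821776-94823247. A Plxnd1 region (chr6:115956067-115960766) had 50.8 and 45.6 against 4.7 and 34.1, and a Plxna1 region (chr6:89358626-89359830) had 34.3 and 47.1 against 12 and 15.0. Sema6a had a region higher at 4% O2, with 30 and 32.2 against 2.3 and 4.0, and another that was lower, with 8.1 and 5.9 against 70.1 and 10.6. Lower at 4% O2 were also Slit1 over chr19:41684201-41685185, with 29.6 and 19.6 against 65.1 and 47.5, Epha7 over chr4:28815585-28816432, with 1.0 and 11.9 against 25.5 and 50.2, and Ntng2 over chr2:29218811-29219337, with 5.8 and 0.2 against 29.3 and 27.0. Of the 33 plexin regions, which lie in 7 genes, 9 ranked above and 2 below without overlap. Semaphorin regions had 7 of 49 above and 3 below, and Epha regions 1 of 8 above and 4 below.

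CTCF had 141 regions in 47 members, 12 higher at 4% O2 without overlap (8.51%; 10.2% of all regions) and 14 lower (9.93%; 9.89% of all). The median difference in members was 0.06 points (0.12 over all regions). The member median ranged from -1.51 without 20% O2 replicate 1 to 1.16 without 4% O2 replicate 1. Regions within the same gene went both ways: Plxna4, a receptor of class 3 and 6 semaphorins, had one region with ranks of 58.6 and 64.9 at 4% O2 and 36.3 and 56.4 at 20% O2, and another with 65.7 and 44.4 against 76.1 and 70.5. Slit3 (chr11:35695085-35695335) had 19.8 and 14.3 against 2.0 and 2.0. Sema3f had 32.1 and 41.9 against 29.2 and 15.3, and Sema5b 40.2 and 39.6 against 31.7 and 22.5. Lower at 4% O2 were Plxna1, with 11.2 and 17.9 against 28.9 and 37.3, Epha6, with 68.4 and 55.5 against 89.0 and 71.5, and Robo1, with 41.1 and 28.8 against 46.9 and 49.0. The 12 Robo regions had a median difference of -11.14 points, and 7 of them were lower at 4% O2 in both rounds and 0 higher in both. That median was -3.88 points in round 1 and -20.27 in round 2. All 8 Efna regions together had a median of 3.47 points, with 4 higher without overlap and 0 lower.

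RAD21 had 84 regions in 39 members, 12 higher at 4% O2 without overlap (14.3%; 16.4% of all regions) and 16 lower (19%; 17.8% of all). The median difference was 1.48 points (0.2 over all regions), with -1.92 in round 1 and 3.31 in round 2 for members. Higher at 4% O2 were 2 Plxna4 regions, with ranks of 72.9 and 66.8 against 51.9 and 52.7, and of 43.5 and 49.2 against 31.8 and 31.0. Slit2 (chr5:48037370-48038987) had 77.0 and 87.1 against 55.8 and 76.9. The Plxnd1 region at chr6:115956596-115957243 had 25.7 and 17.8 against 7.1 and 6.0 and lies within the Plxnd1 region that was higher for H3K9ac. Lower at 4% O2 were Plxna2, with 29.3 and 14.6 against 76.3 and 42.6, Robo1, with 15.3 and 3.9 against 58.3 and 20.4, and Epha6, with 18 and 25.9 against 53.9 and 44.1. The Epha6 peak lies within the CTCF region of that gene that was lower too. Efnb1 was lower at its start (chrX:99134786-99135761), with 59.7 and 48.4 against 88.2 and 65.6. Of the 6 Ephb regions, 5 were lower without overlap and 0 higher, with a median of -11.46 points, and the 3 Robo regions were lower in both rounds, with a median of -12.58 points.

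**Figure D5:**
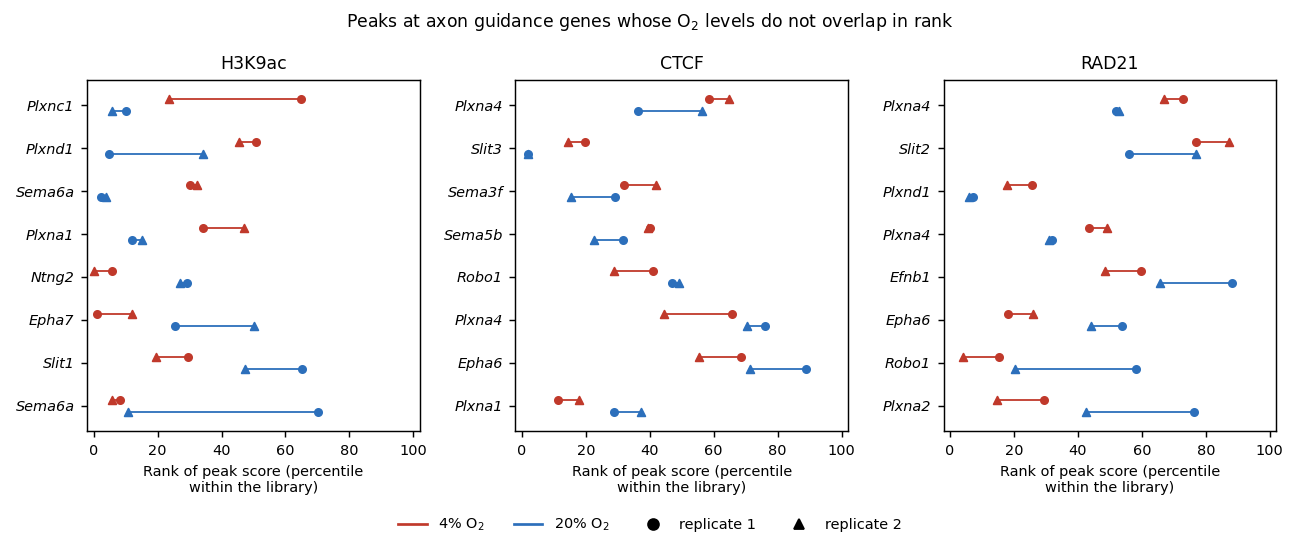
Ranks of the named H3K9ac, CTCF and RAD21 peaks within each library, from 0 (lowest score) to 100 (highest), over regions called in all 4 libraries; red is 4% O2 and blue 20% O2, circles replicate 1 and triangles replicate 2, joined by a line. Regions were shown because the 2 levels did not overlap, so the gap between the colours is by choice.

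The wider pathway was followed in 62 partner genes. They are receptors, co-receptors and other surface or secreted proteins outside the member families, and intracellular partners. This list too was drawn up with earlier results of these data known. For POLR2, 15 of their 41 regions were higher at 4% O2 without overlap and 2 lower (36.6% and 4.88%, against 14.9% and 15.9% of all regions), with a median log2 ratio of 0.20. For POLR2S5 these were 12 and 7 of 60 (20.0% and 11.7%, against 15.3% and 15.4%) with a median of 0.12, and for POLR2S2 16 and 5 of 51 (31.4% and 9.8%, against 20.3% and 19.1%) with a median of 0.19. No test was made of these shares. Flrt1, a membrane protein that binds the netrin receptor UNC5, had the one region that edgeR called with the replicate block. Over chr19:7147801-7161400, which Macrod1 also spans, it gave 93.6 and 85.2 POLR2 CPM at 4% O2 and 16.5 and 21.1 at 20% O2, a log2 ratio of 2.23 ± 0.34 (adjusted p = 0.0278 with the block), and per kilobase of island the log2 ratio was -0.42. Ablim1, an actin-binding protein, and Plcg1, a phospholipase, had POLR2 log2 ratios of 1.32 ± 0.77 and 0.60 ± 0.34. For POLR2S5, Ablim1 had 1.63 ± 0.88, another Flrt1 region 1.36 ± 1.09 and Unc5c, a netrin receptor, 0.85 ± 0.30. Neo1, the netrin and RGM receptor neogenin, had 4 POLR2S2 regions higher at 4% O2, 2 of them with log2 ratios of 1.66 ± 0.48 and 1.36 ± 0.48, and Pak1, a kinase downstream of Rac, had 1.63 ± 0.53. Lower at 4% O2 were Dcc, the netrin receptor, with -0.59 ± 0.36 for POLR2, -0.70 ± 0.45 for POLR2S5 and -0.70 ± 0.46 for POLR2S2, the kinase Fyn, with -0.48 ± 0.31 for POLR2, the guanine exchange factor Trio, with -2.04 ± 0.48 for POLR2S5, and the cytoskeletal regulator Dpysl3, with -1.08 ± 0.47 in a POLR2S5 region shared with Stk32a and -0.98 ± 0.59 in a POLR2S2 region. Other Dpysl3 regions, with overlapping levels, had -0.53 and 0.20 for POLR2S5 and -0.50 and -0.37 for POLR2S2. Per kilobase of island, log2 ratios changed sign at Ablim1 (-0.61 for POLR2 and -0.33 for POLR2S5), Plcg1 (-0.97), Unc5c (-0.50), Neo1 (-0.66 and -0.33), Pak1 (-0.79) and Trio (0.13), on a scale whose medians over all regions were -0.48 for POLR2, -0.30 for POLR2S5 and -0.37 for POLR2S2. Apart from Flrt1 with the block, no partner region passed edgeR's test with or without it.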

How the data were processed

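Lists of 24 immunoprecipitated libraries were used. The authors' tools were BWA, Picard, SICER and MACS2 with build mm10, per the submitters' processing notes, which name no versions. Per the file headers, SICER made the polymerase lists and MACS2 the others. Each deposited SICER list ends in a column taken here as read counts of the islands, unscaled, and each deposited MACS2 list in one taken as −log10 of a q-value, both judged from the values. Island reads do not give depth, which is unknown. The second list placed with each replicate 1 had the scores of replicate 2's own list in all 12 cases and was counted once, as replicate 2.

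The members and gene lists were chosen with earlier results of these data known. Genes and upstream sequences came from RefSeq tables of GRCm38.p6; exons and introns were not told apart. Lists were read on chromosomes 1 to 19, X and Y, and an overlap of 1 bp with the gene and 1 kb each side counted. Regions are merged peaks of the 4 libraries of an antibody, and those called in all 4 were compared with edgeR 4.0.16 in R 4.3.3 (TMM, Benjamini-Hochberg over all regions), checked on simulated data. Alternatives were a replicate block, DESeq2 1.42.0, other scaling, windows and filters, and each library left out.

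Replicate numbers pair the samples, since within an antibody both O2 levels of a number share a flow cell per the file headers; across regions, libraries of 1 number deviated together from their groups (r = 0.531 with POLR2, 0.55 with POLR2S5, 0.39 with POLR2S2). Named regions were those with non-overlapping O2 levels, at most 5 per direction and polymerase form by log2 ratio and 4 per direction by rank difference for the other antibodies. Also named were members called at 1 level alone, the 3 most occupied per antibody, those without H3K9ac, and partners called by edgeR or at most 3 per direction, of which 1 is not reported here. The Slit2 and Epha8 start regions, Mir218, Neo1's count and the printed windows were added after their values were seen.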

Additional observations from a re-analysis of the deposited data

How the results depend on the processing

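Of the member regions named for non-overlapping levels, 13 changed sign when reads were taken per kilobase of island. That scale moves the median of all regions to -0.48 for POLR2, -0.30 for POLR2S5 and -0.37 for POLR2S2, so that small positive ratios turn negative with it. Larger ratios fell by more than that median moved. For POLR2S2, Plxnd1 went from 1.82 to -0.44 and Sema4a from 1.49 to -0.19. For POLR2S5, Sema4a went from 1.27 to -0.20. Sema4b for POLR2 and Epha8 for POLR2S5 turned from negative to positive, against the shift of the median. Other regions given above turned too, among them POLR2S2 at the Slit2 start (-0.80), POLR2 at the starts of Epha8 (-0.10) and Sema7a (-0.22), and the partner regions listed with their values. The 13 named member regions that turned were, for POLR2, Sema3b (-0.18 and -0.30), Sema4a (-1.46), Efna4 (-0.77) and Sema4b (0.69). For POLR2S5 they were Sema4a (-0.20), Efna1 (-0.06), Sema3b (-0.09) and Epha8 (0.18). For POLR2S2 they were Plxnd1 (-0.44), Sema4a (-0.19), Sema3b (-0.02) and Sema4b (-0.11), all as log2 ratios. Median member ratios per kilobase were -0.26 for POLR2 and -0.33 for POLR2S2. Epha8 passed with DESeq2, as given above. Slit3 passed without 20% O2 replicate 2, in a fit with 1 library at 20% O2 that is assumed to vary like the others.

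Pairing by the replicate block gave 2, 3 and 11 called regions for POLR2, POLR2S5 and POLR2S2, against 0 without it, and moved the H3K9ac median to 1.25 points; it put no member past the threshold. DESeq2 called 1, 19 and 53. Leaving out 1 library gave 0 to 195 called regions for POLR2, 0 to 50 for POLR2S5, both highest without 20% O2 replicate 2, and medians of -0.11 to 0.07 for POLR2, -0.13 to 0.10 for POLR2S5, 0.05 to 1.30 points for H3K9ac and -1.51 to 1.16 for CTCF. The POLR2 median was 0.27 over regions with an island in any library, and the POLR2S5 median -0.48 over regions touching 1 gene. For H3K9ac the median was -0.26 with peaks in at least 2 libraries, -0.07 with scores above the median and 1.28 with summed scores. For CTCF it was -0.69 with peaks in at least 2 libraries, 0.81 with scores above the median and -0.21 with no flank. The cause of these shifts was not tested.

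Members called at 4% O2 alone numbered 0 for POLR2 and 0 for POLR2S2 with a flank of 5 kb, 0 and 2 when most of an island had to lie in the window, 2 for POLR2S2, 1 for POLR2S5 and 1 for RAD21 with scores above the median, and 1 for RAD21 at starts. Those called at 20% O2 alone numbered 1 each for POLR2, POLR2S5 and RAD21 at starts, 1 for POLR2S2 with most of the island inside, and with scores above the median 2 for POLR2S2, 1 for H3K9ac and 1 for RAD21. With the libraries of only 1 replicate number, a choice made after seeing the data, 1 library stood for each level. Counts at 4% O2 alone were then 1 to 17 for POLR2, 2 to 6 for POLR2S5, 6 to 9 for POLR2S2, 0 to 2 for H3K9ac, 0 to 1 for CTCF and 0 to 3 for RAD21, and at 20% O2 alone 0 to 2 for POLR2, 1 to 2 for POLR2S5, 1 to 2 for POLR2S2, 1 to 3 for H3K9ac, 2 to 5 for CTCF and 4 to 5 for RAD21. Since depth is unknown, a gene without a call is not shown to lack binding.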
